A study of Mus musculus with 12 samples.

Results

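A group of 8 genes that make, inactivate or answer to estrogen was followed in mouse granulosa cells before and after an ovulatory dose of human chorionic gonadotropin (hCG). They are Cyp19a1, Hsd17b1, Hsd17b4, Hsd17b7, Hsd17b11, Sult1e1, Srd5a1 and Greb1. The list was drawn up by gene role with earlier results of these data known, so counts over it describe these genes and do not sample the array. The members were found in the table by gene symbol, and every probe set annotated with exactly 1 of these symbols was taken. Of the 8 genes listed, 6 had such probe sets, 15 in all, out of 45101 probe sets on the array and 18194 genes tested. Cyp19a1 and Srd5a1 matched no probe set by symbol and were not analysed here.

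Granulosa cells line the follicle and, under follicle-stimulating hormone (FSH), turn androgens from the theca into estrogens. Aromatase (Cyp19a1) makes the estrogen ring, enzymes of the Hsd17b family move steroids between the weak keto form and the potent hydroxyl form, and a sulfotransferase (Sult1e1) attaches a sulfate that keeps estrogens from binding their receptors. After the surge of luteinizing hormone (LH), which hCG imitates, granulosa cells of the preovulatory follicle leave estrogen synthesis and turn to progesterone.

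Female mice of 24 to 26 days of age all had an injection of 5 IU of PMSG, a serum gonadotropin that makes follicles grow. Cells were collected 48 h later (0 h) or, after 5 IU of hCG given at that time, another 4 h later (4 h). The mice were wild type (WT) littermates or carried Ex6DEL, a germline deletion of exon 6 of Snf2l (Smarca1, an ISWI chromatin remodelling ATPase) in all tissues. The deletion was made with a ubiquitous Gata-1 Cre on a CD-1 background and kept without Cre on 129Sv, so each array compares whole-body genotypes and not a change limited to granulosa cells. Each array held RNA pooled from 5 mice, and each of the 4 groups had 3 arrays. The sources used here do not say if the arrays within a group were made from independent pools, so p-values measure only the spread between arrays, which may be technical.

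The deposited values are log2 intensities between a floor of 2.21 and 18.2, with array medians of 2.75 to 2.91. The number of arrays limits the precision. All 10 listed granulosa markers were measured, although Amh was at the floor on all 12 arrays. Averaged over a group, their mean was 11.63 at 0 h and 11.30 at 4 h in WT cells. The Ex6DEL means were 12.15 at 0 h (11.81 to 12.68 on single arrays) and 10.94 at 4 h (10.92 to 10.96). It overlapped between times in WT cells and did not in Ex6DEL cells. Smarca1 read between 10.31 and 12.32, with group means of 10.72 and 10.76 at 0 h in WT and Ex6DEL cells, and the sources used here do not place its probes on exons, so the level does not check the deletion. Of the arrays of 0 h, 3 stood apart. The mean of 14 ovulatory response genes was 9.26 in Ex6DEL 0 h replicate 3, against 4.37 to 5.57 on the other 0 h arrays and 10.91 to 12.45 at 4 h. The mean of 13 immediate early genes was 8.94 in WT 0 h replicate 1, against 6.14 and 6.65 in the rest of its group, and 11.45 in Ex6DEL 0 h replicate 3. The mean of 9 theca and stroma markers was 12.46 in Ex6DEL 0 h replicate 1, against 8.10 to 9.75 on the other 11 arrays. In these bulk samples, fewer cells of a type and less RNA per cell cannot be told apart.

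At 4 h after hCG the estrogen sulfotransferase rose from near the floor of the table to a high level in both genotypes. The estrogen-forming dehydrogenase Hsd17b1 and the estrogen-responsive gene Greb1 fell when both genotypes were averaged. They also fell in Ex6DEL cells taken alone, but none of the 3 calls made there was kept with the replicate number as a block. The mean of the granulosa markers was lower at 4 h as well in Ex6DEL cells, and most of its genes fell on average. There Fshr read 12.05 to 13.57 at 0 h and 7.69 to 8.76 at 4 h. Gja1 read 16.11 or more at 0 h and 16.06 or less at 4 h, and Amhr2 12.695 or more and 11.542 or less. Inha and Inhba were lower on average, with arrays that overlapped between times. Only Cdh2 rose on average, from 8.53 to 10.04 at 0 h to 9.94 to 10.78 at 4 h. Fshr, Foxl2 and Nr5a2 are also among the pathway genes below, so the mean is not fully separate from them. Gja1, Amhr2, Inha and Inhba are not listed there. The part of the granulosa marker fall in the falls of Hsd17b1 and Greb1 was not tested. No member passed the test between genotypes. In WT cells 1 of the 6 measured members was called at an adjusted p under 0.05, as higher, where 0.929% of all genes were called and 0.610% were called higher. In Ex6DEL cells 3 members were called, where 2.17% of all genes were. Of these 1 was higher, as were 0.566% of all genes, and 2 were lower, as were 1.60%. In the mean of both genotypes the same 3 genes were called, where 9.72% of all genes were, 3.10% as higher and 6.62% as lower. These shares include genes near the floor, while all measured members lay above the gene median of 4.74. With only genes above that median tested, 1334 genes were called in Ex6DEL cells, against 394 over all genes, and the same 3 members.

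**Figure D1:**
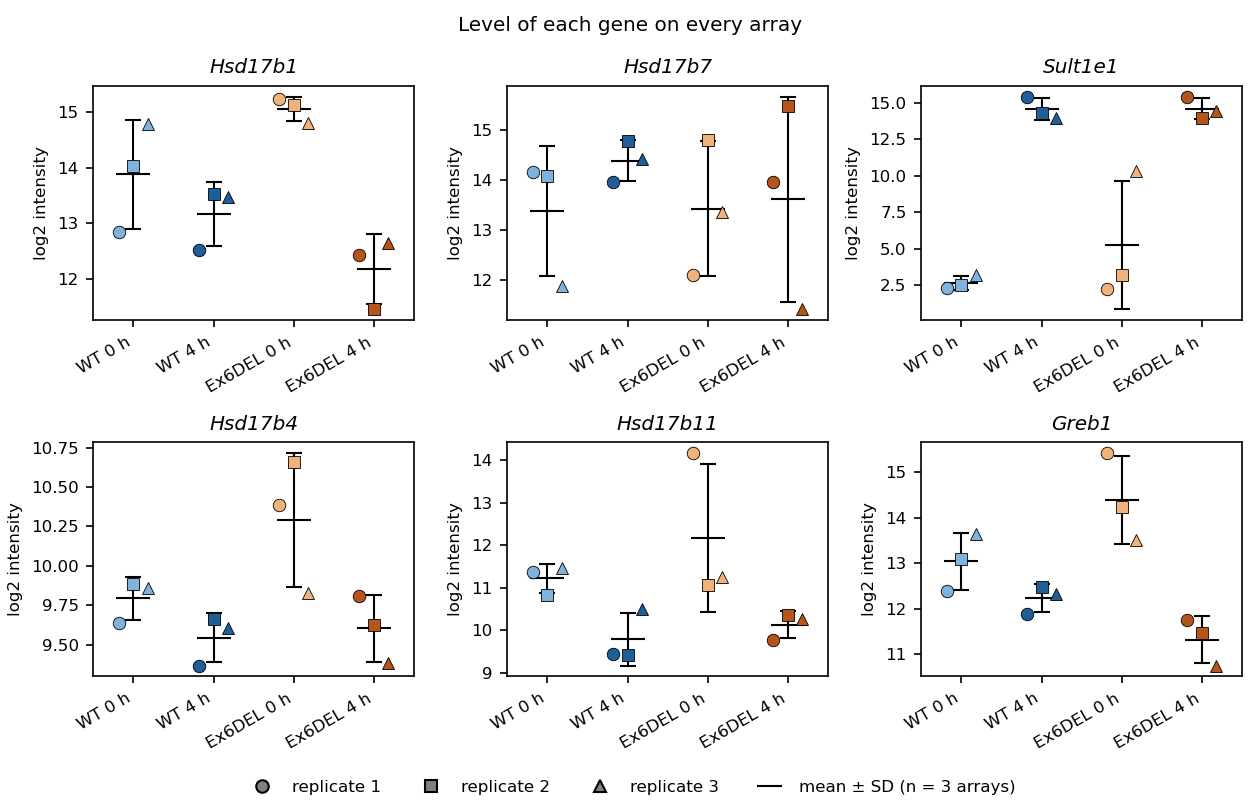
Log2 intensity of the 6 measured genes on each of the 12 arrays, with the vertical scale set for each gene. Symbols mark the replicate number, horizontal lines are group means and whiskers are SD (n = 3 arrays). Sult1e1 lies between 2.24 and 3.20 on 5 of the 6 arrays of 0 h and between 13.98 and 15.43 on all arrays of 4 h, while the highest Greb1 and Hsd17b1 values are in Ex6DEL cells at 0 h.

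The bases before the start sites of Sult1e1 and Greb1 are shown because the calls of these genes over both genotypes did not rest on any single array, and each of the windows printed holds one copy of a nuclear receptor half-site. The window before the second RefSeq start of Greb1 holds 0 copies and is not printed. The sequences are those of RefSeq on GRCm38.p6, each the 250 bases before the annotated start on the minus strand, printed 5′ to 3′ with the half-site in capitals (AGGTCA, found here as its reverse complement TGACCT). The first is at chr5:87591612-87591861, before Sult1e1 (chr5:87575968-87591611), and the second is at chr12:16800887-16801136, before the first start listed for Greb1. That start lies inside the annotated span of the gene (chr12:16670615-16801394), so the window is not upstream of the whole gene.
Sult1e1: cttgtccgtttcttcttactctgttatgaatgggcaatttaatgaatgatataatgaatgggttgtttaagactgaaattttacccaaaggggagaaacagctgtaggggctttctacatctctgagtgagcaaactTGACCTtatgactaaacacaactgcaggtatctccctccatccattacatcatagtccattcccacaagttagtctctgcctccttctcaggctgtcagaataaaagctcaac
Greb1: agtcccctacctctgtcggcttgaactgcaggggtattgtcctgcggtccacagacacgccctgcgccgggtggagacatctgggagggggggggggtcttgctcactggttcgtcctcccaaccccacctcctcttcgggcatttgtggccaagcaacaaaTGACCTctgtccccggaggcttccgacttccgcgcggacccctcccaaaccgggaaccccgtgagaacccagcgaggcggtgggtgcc
The half-site lies 113 to 108 bases before the Sult1e1 start and 88 to 83 bases before the Greb1 start. On either strand it occurs in 14.0% of the 32851 promoter windows of the same length, so its presence is a description and not a binding site. A full estrogen response element, GGTCANNNTGACC, occurs in 0.0639% of the windows, and its letters are not in the windows of Sult1e1, Greb1, Hsd17b7 or Hsd17b11. The letters of an AP-1 site (TGANTCA, in 6.75% of windows) and of a RUNX site (TGTGGT, in 14.0%) are not in these windows either. A cAMP response half-site, TGACG, which occurs in 17.8% of windows, is found among them in that of Hsd17b7, 46 to 42 bases before its start. No window of Hsd17b1 or Hsd17b4 was searched, so none of this covers those genes.

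Sult1e1 encodes the cytosolic sulfotransferase that inactivates estradiol and estrone. In WT cells its log2 intensity was 2.29, 2.49 and 3.20 at 0 h and 15.43, 14.30 and 14.00 at 4 h. In Ex6DEL cells it was 2.24, 3.20 and 10.31 at 0 h and 15.38, 13.98 and 14.43 at 4 h. In each genotype all arrays of 4 h lay above all arrays of 0 h, and 5 of the 6 arrays of 0 h lay within 1 log2 unit of the floor. The reading of 10.31 belonged to Ex6DEL 0 h replicate 3, the array whose ovulatory genes were also raised. The part of that array's state in the value was not tested.

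Sult1e1 rose by 11.92 ± 1.79 on the log2 scale in WT cells (SE of the limma model, 95% interval 7.84 to 15.99, adjusted p = 0.0289). This was the highest change of all 18194 genes. In Ex6DEL cells it rose by 9.35 ± 1.79 (5.27 to 13.42, adjusted p = 0.0422), again the highest of all. These sizes start from the floor set by background correction, so they give the range of the summarised intensity and not a ratio of transcripts. With the replicate number as a block, the adjusted p in Ex6DEL cells was 0.0665, past the threshold no longer. The WT call was lost, at adjusted p of 0.0521 to 0.0999, when any 1 of 8 arrays was left out (each WT 0 h array, WT 4 h replicates 1 and 2, and each Ex6DEL 4 h array), while the change stayed between 11.49 and 12.21. The Ex6DEL call was lost at 0.0554 to 0.128 without any single array except Ex6DEL 0 h replicate 3. Without that replicate the Ex6DEL change was 11.87 (adjusted p = 0.000275).

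Averaged over both genotypes, Sult1e1 rose by 10.63 ± 1.27 (adjusted p = 0.00396), a call that was kept without any 1 of the 12 arrays. Ex6DEL minus WT was 2.59 at 0 h (adjusted p = 0.874), and 0.06 without Ex6DEL 0 h replicate 3. At 4 h the difference was 0.02, with a model interval from -4.06 to 4.09 that leaves room for a large difference either way. That interval rests on a spread pooled over the 4 groups, which includes Ex6DEL 0 h with its SD of 4.41. The arrays being compared lay closer together, with an SD of 0.76 for WT 4 h and 0.72 for Ex6DEL 4 h (n = 3 each). The responses of the genotypes differed by -2.57 ± 2.53 (adjusted p = 0.871), and by 0.14 when Ex6DEL 0 h replicate 3 and WT 0 h replicate 1 were both left out.

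The 3 genes whose centred profiles lay nearest to that of Sult1e1 over the 12 arrays were Nts, Btc and Pgr. Their root mean square differences from it were 0.511, 0.595 and 1.16 log2 units, where the median over all genes compared was 5.82. Nts encodes neurotensin, Btc the EGF receptor ligand betacellulin, and Pgr the progesterone receptor. On Ex6DEL 0 h replicate 3 they read 10.56, 10.99 and 10.44, above all other 0 h arrays, as Sult1e1 did.

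Hsd17b1 (gene at chr11:101077968-101081188) reduces estrone to estradiol and is the form of the family typical of granulosa cells in growing follicles. At 0 h it read 12.84, 14.02 and 14.78 in WT and 15.24, 15.12 and 14.81 in Ex6DEL cells. At 4 h it read 12.51, 13.53 and 13.47 in WT and 12.43, 11.45 and 12.64 in Ex6DEL cells. The arrays of WT cells overlapped between times, and those of Ex6DEL cells did not. At 0 h the 3 Ex6DEL arrays lay above the 3 WT arrays, with the nearest of them at 14.81 and 14.78.

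In Ex6DEL cells Hsd17b1 fell by 2.88 ± 0.52 (interval -4.06 to -1.70, adjusted p = 0.0376), which is 7.37-fold lower. The call was lost with the replicate block, at an adjusted p of 0.0612. It was also lost at 0.0544 to 0.115 without any 1 of WT 0 h replicate 2, WT 4 h replicates 2 and 3, Ex6DEL 0 h replicates 1 and 2, and each Ex6DEL 4 h array. In WT cells the change was -0.71 ± 0.52 (adjusted p = 0.584), a value that was -1.46 after quantile normalization (adjusted p = 0.167), -1.23 without WT 0 h replicate 1, and -0.26 and -0.38 without WT 0 h replicate 3 and WT 4 h replicate 1. Averaged over both genotypes Hsd17b1 fell by 1.80 ± 0.37 (adjusted p = 0.0213, 3.47-fold lower). That call was lost without WT 0 h replicate 2 or WT 4 h replicate 1, at 0.0513 to 0.0561.

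The difference between the Hsd17b1 responses was -2.17 ± 0.73, with an unadjusted p of 0.0168 in limma and an adjusted p of 0.871. It was -0.89 after quantile normalization. Ex6DEL minus WT was 1.17 at 0 h (interval -0.01 to 2.36, adjusted p = 0.874) and -0.997 at 4 h (adjusted p = 1). The difference at 0 h was 0.07 after quantile normalization.

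Hsd17b7 (gene at chr1:169949535-169969242) also reduces estrone to estradiol, and it serves as a ketoreductase of cholesterol synthesis. It read 14.16, 14.07 and 11.89 in WT at 0 h and 13.96, 14.76 and 14.42 in WT at 4 h. The Ex6DEL arrays gave 12.10, 14.79 and 13.35 at 0 h and 13.95, 15.46 and 11.42 at 4 h. In 3 of the 4 groups its arrays ranged over more than the difference between any pair of group means. Its change was 1.01 ± 1.10 in WT (adjusted p = 0.756), 0.19 in Ex6DEL cells (adjusted p = 1) and 0.60 over both (adjusted p = 0.674), and the genotypes' responses differed by -0.81 (adjusted p = 0.933). Ex6DEL minus WT was 0.04 at 0 h and -0.77 at 4 h (adjusted p = 1 for both).

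Of the 4 probe sets of Hsd17b7, 3 had their lowest values on the same 3 arrays, and the fourth was lowest on the first pair of these. On WT 0 h replicate 3 they read 11.89, 7.44, 6.96 and 3.93. On Ex6DEL 0 h replicate 1 they read 12.10, 8.05, 4.69 and 2.62, and on Ex6DEL 4 h replicate 3 they read 11.42, 7.38, 6.72 and 4.66. On Ex6DEL 4 h replicate 2, where each probe set was at its highest, they read 15.46, 11.56, 11.89 and 7.07. The mean of 13 sterol synthesis genes, a list drawn up after these values had been seen, was 10.17, 10.48 and 10.33 on the 3 low arrays and 12.02 on the high one. It was also low, at 10.38, on WT 0 h replicate 1, where Hsd17b7 was not. The nearest profiles to Hsd17b7, also looked up after its values were seen, were those of Avpi1, Gimap4 and the MAP kinase phosphatase Dusp1, at 0.449, 0.529 and 0.538 log2 units against a median of 1.37.

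**Figure D2:**
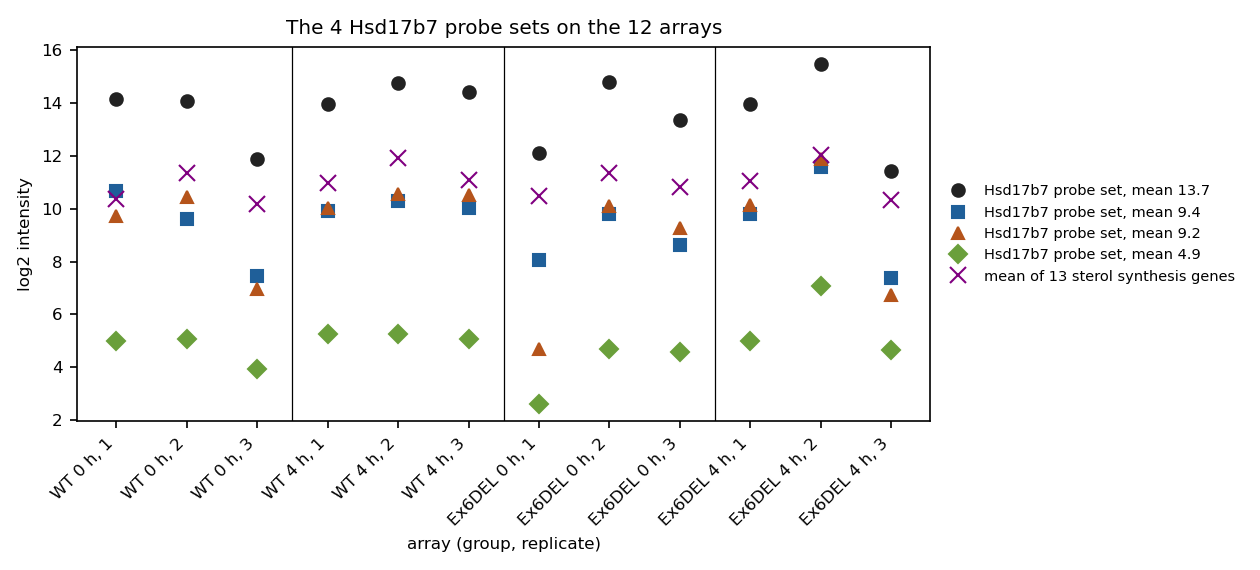
Log2 intensity of the 4 Hsd17b7 probe sets and the mean of 13 sterol synthesis genes on each array, with vertical lines between the 4 groups. The 3 brighter probe sets dip together on WT 0 h replicate 3, Ex6DEL 0 h replicate 1 and Ex6DEL 4 h replicate 3, and all 4 peak on Ex6DEL 4 h replicate 2.

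Hsd17b4 (gene at chr18:50128201-50196270) is the peroxisomal multifunctional enzyme that oxidises estradiol to estrone and takes part in the breakdown of fatty acids. It read 9.64, 9.89 and 9.86 in WT at 0 h and 9.37, 9.66 and 9.61 at 4 h. In Ex6DEL cells it read 10.39, 10.66 and 9.83 at 0 h and 9.81, 9.62 and 9.39 at 4 h. The Ex6DEL arrays separated by time, narrowly, and the WT arrays overlapped.

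The change of Hsd17b4 was -0.69 ± 0.20 in Ex6DEL cells (adjusted p = 0.117), -0.25 in WT (adjusted p = 0.623) and -0.47 ± 0.14 over both (adjusted p = 0.0803). Leaving out Ex6DEL 0 h replicate 3 brought the Ex6DEL change past the threshold, at -0.92 (adjusted p = 0.0201), and that over both genotypes at -0.58 (adjusted p = 0.0131). Its other probe set gave -0.75 in WT, -0.76 in Ex6DEL and -0.75 over both. The last of these was past the threshold when p-values were adjusted over probe sets (adjusted p = 0.0245). At 0 h the genotypes differed by 0.49 at the first probe set (unadjusted p = 0.0394 in limma, adjusted p = 0.874) and by -0.08 at the other. At 4 h the difference at the first probe set was 0.06 (adjusted p = 1).

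Hsd17b11 (gene at chr5:103989765-104021796) is a lipid droplet dehydrogenase that acts on androgen metabolites. It read 11.39, 10.84 and 11.46 in WT at 0 h and 9.46, 9.42 and 10.51 at 4 h. The readings in Ex6DEL cells were 14.18, 11.07 and 11.26 at 0 h and 9.77, 10.36 and 10.27 at 4 h. In both genotypes all arrays of 4 h lay below those of 0 h, yet no change passed the test. The value of 14.18 was on Ex6DEL 0 h replicate 1, where the means of the theca and stroma, granulosa and oocyte markers were also highest. On that array Cyp17a1, the theca enzyme that makes androgens, read 15.14 against 9.20 to 12.55 elsewhere. The part of these markers in the reading was not tested.

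The change of Hsd17b11 was -1.43 ± 0.75 in WT (adjusted p = 0.449), -2.04 ± 0.75 in Ex6DEL (adjusted p = 0.185) and -1.74 ± 0.53 over both (adjusted p = 0.0785). Without Ex6DEL 0 h replicate 1 the Ex6DEL change was -1.03 (adjusted p = 0.268) and that over both genotypes -1.23, past the threshold at an adjusted p of 0.0272. Ex6DEL minus WT at 0 h was 0.94 with that array (adjusted p = 0.874) and -0.06 without it, and at 4 h it was 0.34 (adjusted p = 1). The other probe sets of Hsd17b11 read between 3.26 and 4.61 and between 2.21 and 2.42 and carried little signal.

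Greb1 is a coregulator of the estrogen receptor and an early target of estrogen in breast and uterine cells. It read 12.40, 13.08 and 13.65 in WT and 15.43, 14.23 and 13.50 in Ex6DEL cells at 0 h. At 4 h it read 11.89, 12.48 and 12.32 in WT and 11.74, 11.47 and 10.75 in Ex6DEL cells. By group mean the order was Ex6DEL 0 h (14.39 ± 0.97, SD, n = 3), WT 0 h (13.04 ± 0.63), WT 4 h (12.23 ± 0.31) and Ex6DEL 4 h (11.32 ± 0.51). The first pair and the middle pair of neighbours overlapped. The 4 h arrays of the genotypes did not overlap, although their difference missed the threshold.

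In Ex6DEL cells Greb1 fell by 3.07 ± 0.51 (interval -4.23 to -1.90, adjusted p = 0.0326), which is 8.37-fold lower. The call was lost with the replicate block (adjusted p = 0.0643). It was lost at 0.0609 to 0.111 without any 1 of WT 0 h replicate 2, WT 4 h replicate 2, Ex6DEL 0 h replicates 1 and 2, and each Ex6DEL 4 h array. In WT cells the change was -0.81 ± 0.51 (adjusted p = 0.565), and -1.47 after quantile normalization (adjusted p = 0.06). It was -0.51 without WT 0 h replicate 3. Averaged over both genotypes Greb1 fell by 1.94 ± 0.36 (adjusted p = 0.0154, 3.84-fold lower), a call kept without any 1 of the 12 arrays.

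Ex6DEL minus WT for Greb1 was 1.34 at 0 h (unadjusted p = 0.0286 in limma, adjusted p = 0.874), and this was 0.35 after quantile normalization. At 4 h the difference was -0.91 (interval -2.07 to 0.26, adjusted p = 1). The responses differed by -2.25 ± 0.72 (unadjusted p = 0.0132 in limma, adjusted p = 0.871), and by -1.09 after quantile normalization. The 4 probe sets of Greb1 gave one direction in each contrast. After hCG they gave -0.81, -1.08, -0.72 and -0.66 in WT, and -3.07, -2.90, -2.28 and -1.17 in Ex6DEL. The first 2 of them passed the threshold in Ex6DEL when adjusted over probe sets, at an adjusted p of 0.0426 for the second. The probe sets share the 12 RNA samples and are not replicates.

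**Figure D3:**
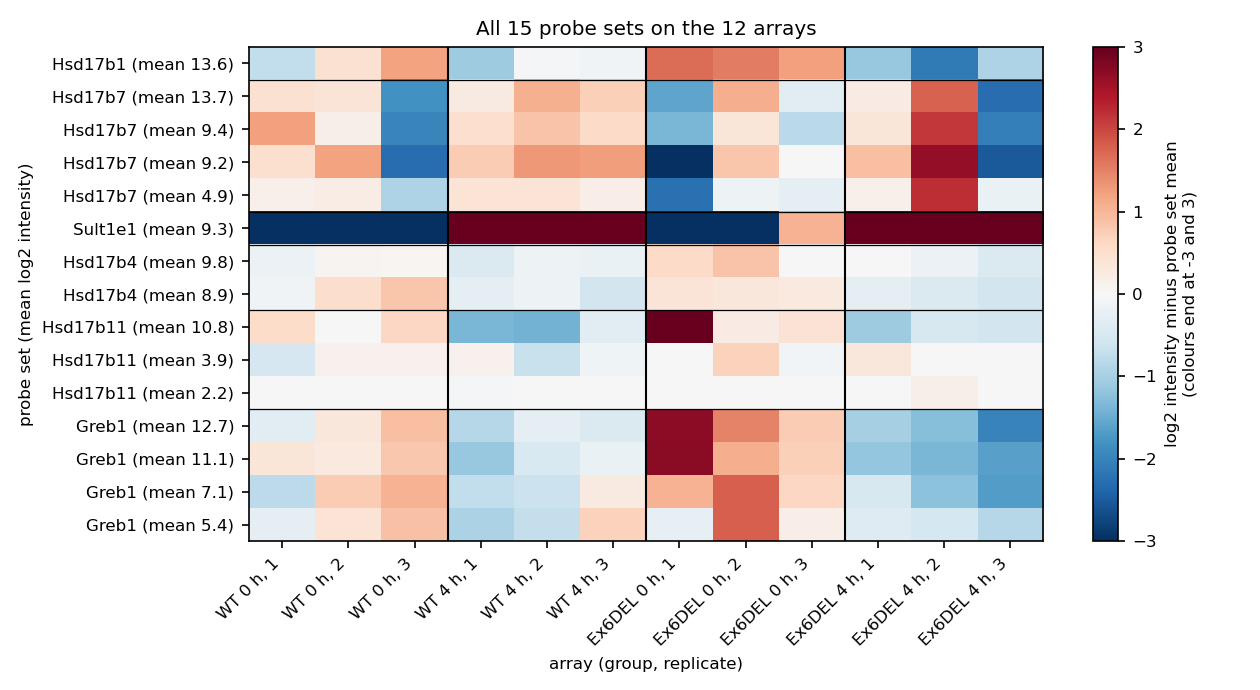
The 15 probe sets of the 6 genes (rows, with their mean log2 intensity) on the 12 arrays (columns, grouped by genotype and time), coloured by log2 intensity minus the probe set's own mean, with colours ending at -3 and 3. The Greb1 rows other than the dimmest turn from red to blue between 0 h and 4 h in Ex6DEL cells. The dimmest was already below its mean on Ex6DEL 0 h replicate 1. The Hsd17b7 rows follow single arrays, and Sult1e1 on Ex6DEL 0 h replicate 3 is lighter than at 4 h.

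The nearest centred profiles to that of Greb1 were those of Acsbg1, an acyl-CoA synthetase, Afdn, the junction protein afadin, and Car14, a carbonic anhydrase. They differed from it by 0.387, 0.400 and 0.428 log2 units over the 12 arrays, where the median over all genes compared was 1.17. Each was highest on Ex6DEL 0 h replicate 1, as Greb1 was, the array with raised theca and stroma, granulosa and oocyte markers. The part of those markers in this order was not tested.

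The 2 falling members and the rising one can be set beside all genes measured. The median change of the 6 members was -0.48 in WT and -1.36 in Ex6DEL cells, against 0 and -0.01 over all genes. Of the 6 members, 2 had arrays that did not overlap between times in WT, where 18.9% of all genes did not. In Ex6DEL cells 5 of the 6 did not overlap, where 19.7% of all genes did not, and 4 of these lay lower at 4 h, where 14.5% of all genes did. Among genes above the median level the median change in Ex6DEL cells was -0.34, and quantile normalization moved it by 0.19.

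**Figure D4:**
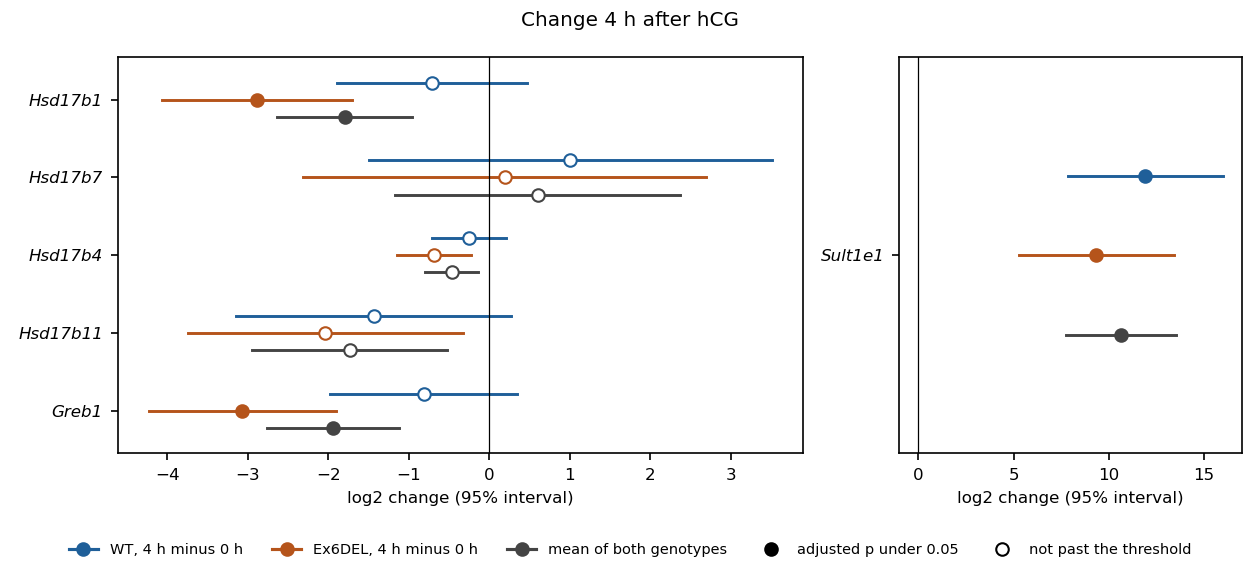
Log2 change from 0 h to 4 h after hCG for each gene in WT, in Ex6DEL and as the mean of both genotypes, with 95% intervals of the limma model and Sult1e1 on an axis of its own. Filled points passed an adjusted p under 0.05. Hsd17b1 and Greb1 are filled in Ex6DEL cells and in the mean, and Sult1e1 is filled in all.

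Between genotypes no member was called by limma. At 0 h 2 members (Hsd17b4 and Greb1) had an unadjusted p under 0.05, as did 5.36% of all genes, and 0.0330% of all genes were called. All 6 members had a positive difference at 0 h, with a median of 1.06 against 0.01 over all genes and 0.21 over genes above the median level. After quantile normalization those of Hsd17b1, Hsd17b4 and Greb1 were 0.07, 0.08 and 0.35, and that of Hsd17b7 was -0.84. That of Hsd17b11 turned negative without 1 array, and that of Sult1e1 was 0.06 without Ex6DEL 0 h replicate 3. Arrays of 1 member, Hsd17b1, did not overlap, where 6.41% of all genes did not. At 4 h no member had an unadjusted p under 0.05, where 1.62% of all genes did, 0% of all genes were called, and 1 member, Greb1, did not overlap, where 2.98% of genes did not. For the difference between the responses, 2 members (Hsd17b1 and Greb1) had an unadjusted p under 0.05, as did 3.20% of all genes. None of the members was called, where 0.0110% of all genes were. All 6 differences of response were negative, with a median of -1.49 against -0.05 over all genes and -0.32 over genes above the median level. Those of Hsd17b4, Hsd17b7 and Hsd17b11 turned positive after quantile normalization, which moved the median of genes above the median level by 0.31. These comparisons share the 0 h arrays, so a high value in Ex6DEL cells at 0 h enters both the genotype difference and the response.

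The wider pathway was described through 48 further genes of estrogen synthesis, clearance and response, of which 42 were measured. In WT cells 1 gene of the 42 was called, as higher, where 0.610% of all genes were. In Ex6DEL cells 4 were called, all lower, where 1.60% of all genes were, and with the replicate block 1 remained, Gata4. Over both genotypes 1 was higher and 6 were lower, where 3.10% and 6.62% of all genes were. None was called between genotypes or for the difference between responses. The median change over both genotypes was -0.33 for the 42 genes, against -0.01 for all genes and -0.20 for genes above the median level.

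Among the regulators of aromatase, the FSH receptor Fshr read 11.08, 11.90 and 12.58 in WT at 0 h and 8.63, 9.01 and 10.60 at 4 h. In Ex6DEL cells it read 13.57, 12.05 and 12.10 at 0 h and 8.28, 7.69 and 8.76 at 4 h. It was lower at 4 h on every array of either genotype. Fshr fell by 3.39 ± 0.46 over both genotypes (adjusted p = 0.00545) and it fell by 4.34 in Ex6DEL cells (adjusted p = 0.0285), while its WT change was -2.44 (adjusted p = 0.13). Gata4, a transcription factor of the gonads that acts on the aromatase promoter, fell by 2.57 over both (adjusted p = 0.0081) and also fell in Ex6DEL cells (95% interval -4.28 to -1.72, adjusted p = 0.0396). The Ex6DEL calls were lost without any 1 of 6 arrays for Fshr and of 10 for Gata4, while those over both genotypes were kept without any 1 of the 12. The transcription factor Foxl2, which keeps granulosa identity, gave -2.69 (adjusted p = 0.0512, and 0.0362 to 0.0489 without any 1 of WT 4 h replicate 3, Ex6DEL 0 h replicate 3 and Ex6DEL 4 h replicate 2). Of the nuclear receptors that bind the aromatase promoter, Nr5a1 gave -1.29 (adjusted p = 0.0657, and 0.0418 without WT 0 h replicate 1) and Nr5a2 gave -0.18 (adjusted p = 0.683). All 7 regulators listed had a negative change over both genotypes, and 2 passed the test.

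Among the receptors and coregulators, Esr1, the estrogen receptor alpha, fell by 1.61 ± 0.25 over both genotypes (adjusted p = 0.00824). Its change was -1.47 in WT (adjusted p = 0.098) and it fell by 1.75 in Ex6DEL cells (adjusted p = 0.047). The call over both genotypes was kept without any 1 of the 12 arrays, and that in Ex6DEL cells was lost without any 1 of 11. Esr2, the beta receptor that prevails in granulosa cells, gave -0.85 (adjusted p = 0.24), on readings between 4.64 and 7.43. The coactivator Ncoa1 fell by 0.84 over both (adjusted p = 0.0456), though 4 of its 4 h arrays held the identical value of 7.95, so their spread understates the error, and the call was lost without any 1 of 11 arrays. The progesterone receptor Pgr, an estrogen target in the uterus that LH induces in granulosa cells, read 3.82, 2.30 and 2.89 in WT at 0 h and 14.08, 13.41 and 12.43 at 4 h. The Ex6DEL arrays read 4.71, 2.79 and 10.44 at 0 h and 14.40, 12.66 and 13.58 at 4 h. It rose in WT cells (adjusted p = 0.0358, 0.0529 to 0.124 without any 1 of 9 arrays) and over both genotypes (adjusted p = 0.00516, kept without any 1 of the 12). Its 0 h readings were near the floor on most arrays, so the changes of 10.31 and 8.94 give the range of the intensity and not a ratio of transcripts. The change of 7.57 in Ex6DEL cells missed the threshold (adjusted p = 0.0557), and it was 9.80 without Ex6DEL 0 h replicate 3 (adjusted p = 0.00244).

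Among the other steroid enzymes, Akr1c14, which reduces keto groups of dihydrotestosterone and progesterone metabolites, fell by 3.25 ± 0.46 over both genotypes (adjusted p = 0.00611) and by 3.81 in Ex6DEL cells (adjusted p = 0.0326). Srd5a3, a relative of the steroid reductase Srd5a1 that serves protein glycosylation, fell by 1.70 over both (adjusted p = 0.0484), a call lost without any 1 of 10 arrays. The Akr1c14 call in Ex6DEL cells was lost without any 1 of 7. Hsd17b2, which oxidises estradiol to estrone, gave -0.93 (adjusted p = 0.269) and read 5.76, 4.30 and 2.56 in WT at 0 h against 2.21 to 2.80 on all other arrays. It gave -1.34 without WT 0 h replicate 3 (adjusted p = 0.0257) and -0.54 without WT 0 h replicate 1. Cyp17a1 gave -0.70 (adjusted p = 0.683), and 0.17 without Ex6DEL 0 h replicate 1, the array with raised theca and stroma, granulosa and oocyte markers.

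Between genotypes at 0 h the smallest p-values belonged to Cyb5a, a cofactor of androgen synthesis, at 1.19, and Hsd17b2, at -1.57 (adjusted p = 0.874 for both), followed by Hsd3b1, Ccnd2 and Esrra at 1.12, 0.86 and -1.17. After quantile normalization the differences of Cyb5a, Hsd3b1 and Ccnd2 were 0.18, 0.04 and 0.25. The Hsd17b2 difference was -0.80 without WT 0 h replicate 1 and -2.39 without replicate 3. The Esrra difference followed 1 reading of 3.74 on Ex6DEL 0 h replicate 1, against 6.35 to 7.06 elsewhere, and was -0.29 without it. Hsd3b1 was highest on the same array, at 17.41, and its difference was 0.54 without it. For the difference between responses Cyb5a and Hsd3b1 gave -1.33 and -1.66 (both adjusted p = 0.871), and -0.09 and -0.33 after quantile normalization. At 4 h Fshr gave -1.17 and Akr1c14 -0.99 (adjusted p = 1 for both), and these were -0.58 without WT 4 h replicate 3 and -0.56 without Ex6DEL 4 h replicate 3. Pdzk1 gave 0.27 at 4 h, on readings of 3.40 to 4.44, and 0.04 without Ex6DEL 4 h replicate 1. Hsd17b6 and Hsd17b3, also among the smallest p-values at 4 h, were at the floor on 11 of the 12 arrays, so no difference is given for them.

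**Figure D5:**
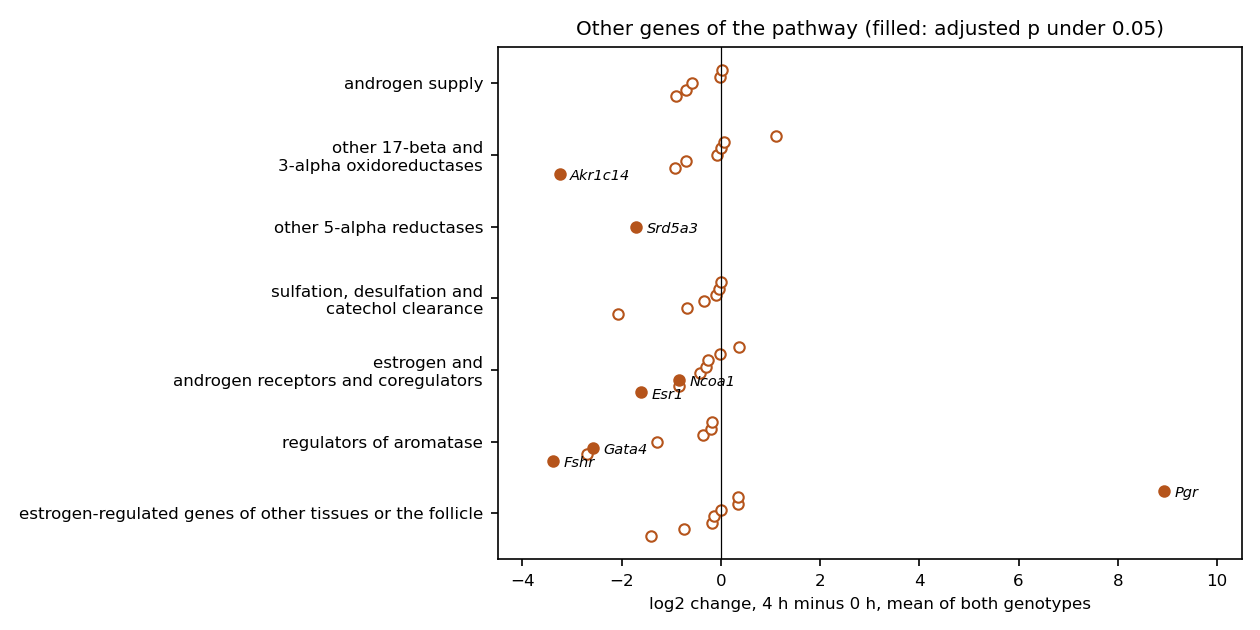
Log2 change from 0 h to 4 h after hCG, as the mean of both genotypes, for the 42 measured genes of the wider pathway, grouped by role. Filled points passed an adjusted p under 0.05 and are named. Pgr is the 1 gene past the threshold above 0, and the 6 others named are below 0.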

How the data were processed

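Pooled granulosa cell RNA was read on 12 Affymetrix mouse arrays. The deposited log2 intensities per probe set were made by the authors with GCRMA, per the submitters' processing notes (version not given), which corrects background, normalizes between arrays and summarises probes. The platform annotation gave 1 symbol to 34958 probe sets, several to 932 and none to 9211. A gene was represented by its probe set with the highest mean, as 9012 genes had several, leaving 18194 genes. One model over the 4 groups was fitted with limma 3.58.1 (R 4.3.3; lmFit, eBayes, 8 residual and 0.626 prior degrees of freedom). Tests were two-sided, with Benjamini-Hochberg adjustment over all genes and a threshold of 0.05, and errors are SE. The script was tested on simulated data.

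Members and lists were chosen with earlier results of these data known. Named genes are the 8 members (Cyp19a1 and Srd5a1 not analysed here), 8 fixed pathway genes, every pathway gene called in a contrast, up to 5 with the smallest p in a contrast with none, and the 3 nearest profiles (root mean square difference of centred values) of Sult1e1 and Greb1. Those of Hsd17b7 were added after its values were seen. Coordinates and promoters are those of RefSeq on GRCm38.p6.

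The labels number the arrays 1 to 3 in every group. Deviations of same-numbered arrays correlated at 0.143, 0.405 and 0.242 between the Ex6DEL times, so the number was taken as a possible pairing of those arrays. In each other contrast at least 1 correlation was under 0.1, down to -0.0449, so the number was not taken to pair arrays there. Other correlations were higher, at 0.727 and 0.372 between the genotypes at 4 h (replicates 1 and 2) and 0.555 at 0 h (replicate 2). The labels do not say that the number pairs arrays, so pairing is not settled. The replicate block gave each number an effect shared by all 12 arrays. It therefore acts on the WT arrays too and is not a pairing of the Ex6DEL arrays alone. Unless the block is named, p-values are those of the model without it. Over the arrays the mean marker level was 5.75 to 7.42 for oocytes, 3.11 to 4.19 for endothelium, 4.42 to 5.30 for leukocytes, 5.22 to 6.51 for red blood cells and 4.75 to 6.59 for ovarian surface epithelium.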

Additional observations from a re-analysis of the deposited data

How the results depend on the processing

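The count of members called was 1 in WT cells and 0 with the replicate block, and it ranged from 0 to 1 with single arrays left out. In Ex6DEL cells it was 3, against 1 (Greb1) with every probe set tested by itself, 0 with only the groups compared, 0 with the replicate block and 0 to 4 with single arrays left out. Over both genotypes it was 3, against 5 with array weights and 2 to 4 with single arrays left out. It was 0 for each comparison of genotypes under every alternative run. Outside the Ex6DEL times the replicate number was not taken to pair the arrays, and there the block changed no other count of members.

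Of the 780 values recomputed for single members, 702 kept direction and side of the threshold, 45 lost the call, 9 gained one and 24 changed sign. In the Ex6DEL response Hsd17b7 was -0.56 with array weights and ranged from -0.73 to 1.29 with single arrays left out. At 0 h Ex6DEL minus WT was -0.84 for Hsd17b7 after quantile normalization and -0.53 as the mean of its probe sets, and -0.12 for Sult1e1 when Ex6DEL 0 h replicate 3 and WT 0 h replicate 1 were both left out. With single arrays left out, that difference ranged from -0.70 to 0.70 for Hsd17b7 and from -0.064 to 1.49 for Hsd17b11. At 4 h it was -0.027 for Sult1e1 with all arrays shifted to one median and -0.017 for Hsd17b4 as the mean of its probe sets. With single arrays left out it ranged from -0.041 to 0.17 for Hsd17b4, from -0.38 to 0.45 for Sult1e1 and from -1.70 to 0.33 for Hsd17b7. The difference between responses was 0.091 for Hsd17b4, 0.29 for Hsd17b7 and 0.17 for Hsd17b11 after quantile normalization, 0.11 for Hsd17b7 as the mean of its probe sets, and 0.14 for Sult1e1 without both arrays named above. It ranged from -1.74 to 0.28 for Hsd17b7 and from -1.15 to 0.40 for Hsd17b11 with single arrays left out. The cause of these changes was not tested.

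Over all genes the count called was 169 in WT (17 to 2289 over the alternatives), 394 in Ex6DEL (10 to 1334), 6 at 0 h (0 to 61), 0 at 4 h (0 to 35), 2 for the difference between responses (0 to 28) and 1768 over both genotypes (895 to 3006). Of the 42 pathway genes, 0 to 8, 0 to 10 and 5 to 12 were called in WT, in Ex6DEL and over both. Readings near the floor of 2.21, where between 36.4% and 40.5% of probe sets lay, limit what can be measured of Sult1e1 at 0 h and of the dim Hsd17b11 probe sets.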
